A study of Mus musculus with 17 samples.

Results

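Hippocampal RNA of male mice that carried both hits, loss of Acss2 and an injection of pathological tau (KO Tau, libraries 711, 712 and 713), was compared with that of male wild-type mice injected with PBS (WT PBS, libraries 791, 792 and 793). These 6 libraries were chosen by genotype, injection and replicate number in their labels, and they are 6 of the 17 libraries of the series and 6 of its 12 male libraries. KO Tau mice were constitutive knockouts (ACSS2KO), with a deletion not restricted to a cell type or an age, and each genotype was bred from its own homozygous parents, which came from heterozygous matings. Mice were injected stereotaxically at 6 months of age, and tissue was taken another 6 months later. The tau was insoluble protein purified from the cortex of people with Alzheimer's disease. All groups were perfused with PBS and fixative before RNA was taken from slices of dorsal hippocampus that held the CA fields and the dentate gyrus. The other male groups, each with 1 hit, were 3 KO PBS libraries (751, 752 and 753) and 3 WT Tau libraries (771, 772 and 773). They shared the fit and are given beside the double hit for the genes it called and for some lists and library measures. The libraries of a group are described as biological replicates, and p-values rest on the spread between them. The study's own account gives fewer knockout tau mice than the libraries analysed here and does not name them.

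ACSS2 makes acetyl-CoA from acetate, and in neurons part of the enzyme is nuclear, where its product feeds the acetylation of histones at genes that respond to activity. Immediate early genes are the first of these to respond: they are switched on within minutes of firing or of growth factor signalling, and many encode transcription factors (Fos, Egr and Nr4a families, Npas4) or proteins that end the signal (dual specificity phosphatases, Sprouty proteins, salt-inducible kinase). Misfolded tau from diseased brain seeds the aggregation of the mouse's own tau, and glial responses around such deposits are well known.

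Total counts of the 6 libraries lay between 15853495 and 21254509, and 15098 of 24498 gene symbols passed the filter on low counts. KO Tau libraries were more dispersed than controls. The median absolute log2 difference of a gene from the mean of the other libraries of its group was 0.323 in 711, 0.235 in 712 and 0.166 in 713, against 0.0977 to 0.115 in WT PBS. It was 0.189 to 0.234 in KO PBS, so the wider spread was not particular to the double hit, and 0.112 to 0.125 in WT Tau. Library 711 differed from 712 and 713 (chi-square per gene of 78.8 and 62.8) by more than it did from the WT PBS libraries (38.0 to 51.0). Library 713 stood apart in choroid plexus genes, as given further on. Among controls, 791 held 82.8 CPM (counts per 1000000 of the library's total) of Cbln3 and 36.8 of Gabra6, genes of cerebellar granule neurons, whereas no other of the 6 libraries passed 0.776 CPM of Cbln3 or 0.156 of Gabra6. These 2 genes were chosen after their values were seen.

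Acss2 itself followed the labels. Acss2 (acyl-CoA synthetase short-chain family member 2, GRCm38 chr2:155517948-155585724, plus strand) was at 49.2, 54.6 and 53.1 CPM in WT PBS and at 5.74, 3.07 and 4.33 CPM in KO Tau. The groups stood far apart, and the residual level was near that of KO PBS (3.14 to 4.17 CPM). The log2 fold change was -3.58 (SE 0.19, edgeR quasi-likelihood test, adjusted p = 1.06e-05), which is 11.9-fold lower on the mean CPM. Tau did not pass the test for Acss2 in wild-type mice (44.0 to 52.2 CPM in WT Tau). No other gene of the 20 on the acetyl-CoA list passed after adjustment, and the list median was -0.05. Acss1, the mitochondrial paralog, was at 31.8, 34.9 and 31.7 CPM in WT PBS and at 47.7, 22.4 and 32.9 in KO Tau. Acly, the ATP-citrate lyase gene that makes acetyl-CoA from citrate, was at 195 to 212 CPM in WT PBS and at 151, 215 and 214 in KO Tau. In both the KO Tau libraries lay on either side of the controls.

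Beyond Acss2, the differences with the smallest p included several immediate early genes, most of them lower. Fosl2, Sik1, Per1 and Dusp5 were lower in each of the 3 KO Tau libraries than in any WT PBS library. So were Spry4, Midn and Irs2, which are not on the list of immediate early genes used here. The falls were 0.62 to 1.22 on the log2 scale. Against them, Npas4 and the peptide hormone gene Avp were higher. The strength of the call depended on the tool. By edgeR, 1 gene passed a false discovery rate of 0.05 (0.00662% of 15098 tested), Acss2, and 956 genes had an unadjusted p under 0.05, 531 higher (3.52%) and 425 lower (2.81%). By DESeq2 on the same 12 male libraries 3 genes were higher (0.0150% of the 19991 genes with an adjusted p) and 12 lower (0.0600%), and by limma voom with sample weights 11 genes passed (0.0729%), 9 of which were among the 15 of DESeq2. In all 15, KO Tau and WT PBS did not overlap. Over all genes tested, the groups did not overlap in 949 genes that were higher (6.29%) and in 1225 that were lower (8.11%).

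**Figure D1:**
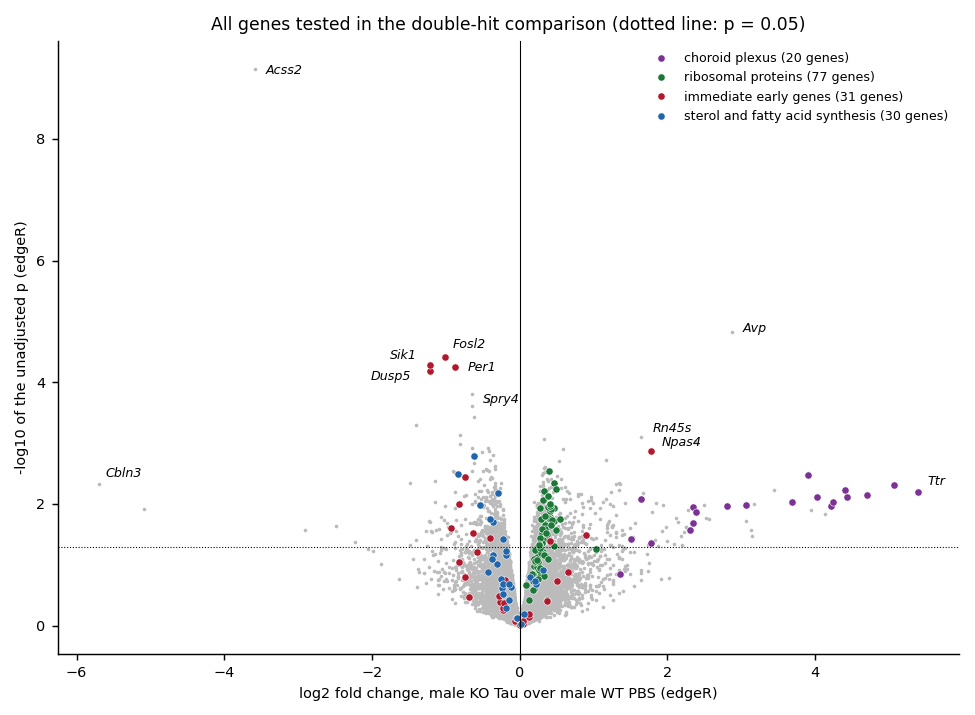
Log2 fold change of male KO Tau over male WT PBS (horizontal axis) against the -log10 of the unadjusted edgeR p (vertical axis) for the 15098 genes tested, each a point, with 4 gene lists in colour. Acss2 stands alone at the top left, Fosl2, Sik1, Per1 and Dusp5 lead the other lower genes, and choroid plexus genes fill the far right, up to 5.40 for Ttr.

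The activity-dependent genes are taken first. Fosl2, which encodes a partner of Jun in the AP-1 transcription factor, was at 72.5, 106 and 87.9 CPM in WT PBS and at 37.1, 50.9 and 43.4 in KO Tau. Every KO Tau library was below every control, and the mean fell from 88.6 ± 16.6 to 43.8 ± 6.89 CPM (SD, n = 3 each). The log2 fold change was -1.01 (SE 0.16), with an adjusted p of 0.162 by edgeR and 2.02e-05 by DESeq2. Per1, a clock gene that cAMP signalling and glucocorticoids induce, was at 128, 145 and 135 CPM in WT PBS and at 59.5, 78.8 and 81.9 in KO Tau. It was lower in each library too, with a log2 fold change of -0.88 (SE 0.14, adjusted p = 0.162 by edgeR and 4.24e-05 by DESeq2). Npas4, a transcription factor gene that calcium entry switches on in neurons, went the other way. It was at 11.3, 13.3 and 12.1 CPM in WT PBS and at 16.8, 71.4 and 37.0 in KO Tau. All 3 KO Tau libraries were above the controls, but 711 by little and 712 by far. The log2 fold change of Npas4 was 1.78 (SE 0.42), with an adjusted p of 0.783 by edgeR, 0.0167 by DESeq2 and 0.0458 by limma voom.

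The promoters of these 3 genes are shown because they belong to 1 class of genes and went in opposite directions, Fosl2 and Per1 lower and Npas4 higher. The RefSeq sequences (GRCm38.p6) run from 250 bases before to 50 bases after a start, in the direction of the gene, and capitals mark the motifs found. Npas4 is on the minus strand (chr19:4989922-4990221), Fosl2 on the plus strand (chr5:32136222-32136521), and Per1 on the plus strand (chr11:69098699-69098998, the upstream of its starts).
Npas4: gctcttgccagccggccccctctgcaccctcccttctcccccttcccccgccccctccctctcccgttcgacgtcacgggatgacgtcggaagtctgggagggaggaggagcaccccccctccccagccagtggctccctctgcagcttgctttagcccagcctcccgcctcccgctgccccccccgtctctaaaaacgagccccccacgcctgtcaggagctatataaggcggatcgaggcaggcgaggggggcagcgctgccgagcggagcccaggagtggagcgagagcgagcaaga
Fosl2: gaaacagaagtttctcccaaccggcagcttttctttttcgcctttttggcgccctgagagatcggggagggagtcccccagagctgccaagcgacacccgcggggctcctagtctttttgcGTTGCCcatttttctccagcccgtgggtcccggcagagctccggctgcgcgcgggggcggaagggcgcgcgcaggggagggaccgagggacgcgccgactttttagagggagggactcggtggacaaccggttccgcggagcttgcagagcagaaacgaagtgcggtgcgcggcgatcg
Per1: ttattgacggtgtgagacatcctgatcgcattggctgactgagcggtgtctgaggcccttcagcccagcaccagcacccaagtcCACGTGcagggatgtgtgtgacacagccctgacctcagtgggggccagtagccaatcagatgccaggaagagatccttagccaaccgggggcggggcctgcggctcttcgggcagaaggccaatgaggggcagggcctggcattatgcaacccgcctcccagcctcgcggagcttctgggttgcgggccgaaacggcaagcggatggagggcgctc
Fosl2 held the RFX half-site GTTGCC at position -129 from the start, and this start of Per1 held the E-box CACGTG at position -166. The sequence of Npas4 held none of the 5 motifs searched on both strands, which were the full CRE (TGACGTCA), the AP-1 motif (TGACTCA), the RFX half-site (GTTGCC), the RBPJ core (TGGGAA) and the E-box (CACGTG). Of 32851 promoters of the same length in the table, 1.79% held the CRE, 5.20% the AP-1 motif, 12.5% the RFX half-site, 25.6% the RBPJ core and 7.15% the E-box. Only exact matches were counted, and the Npas4 sequence holds cgacgtca and tgacgtcg, each 1 letter from the CRE. A match is a run of letters and no measurement of binding.

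Several of the other lower genes encode regulators of kinase signalling. Sik1, the salt-inducible kinase that shuts off CREB coactivators, was at 14.7, 19.9 and 20.1 CPM in WT PBS and at 5.74, 9.54 and 8.0 in KO Tau. Dusp5, a nuclear phosphatase of ERK, was at 16.2, 19 and 15.9 CPM in WT PBS and at 6.12, 6.41 and 9.41 in KO Tau. Neither gene overlapped between groups, and they had log2 fold changes of -1.22 (SE 0.20) and -1.21 (SE 0.20). Their adjusted p was 0.162 by edgeR in both, and 3.15e-05 and 5.80e-05 by DESeq2. Spry4, a Sprouty protein gene that damps receptor tyrosine kinase signalling, was at 22.3, 19.7 and 23.0 CPM in WT PBS and at a tight 13.6, 14.1 and 13.8 in KO Tau. Irs2, the adaptor of insulin and IGF receptors, was at 43.2, 57.8 and 45.1 CPM in WT PBS and at 24.7, 27.1 and 31.4 in KO Tau. Midn, whose product midnolin carries nuclear proteins such as immediate early factors to the proteasome, was at 63.8, 83.8 and 68.6 CPM in WT PBS and at 44.3, 47.5 and 47.9 in KO Tau. These 3 genes passed by DESeq2 (adjusted p = 0.0142, 0.0393 and 0.0167) and not by edgeR, with log2 fold changes of -0.64, -0.81 and -0.62.

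The remaining called genes were of mixed function. Hspa12a, a member of the Hsp70 family, was at 342, 334 and 344 CPM in WT PBS and at 250.3, 282 and 259 in KO Tau, the smallest of the called changes (-0.36 on the log2 scale, DESeq2 adjusted p = 0.0393). Map3k13, a neuronal kinase gene upstream of JNK, was at -0.43 and the zinc finger gene Zfp948 at -0.65 (DESeq2 adjusted p = 0.0173 and 0.0142). Avp, the vasopressin gene, was at 0.548, 0.207 and 0.298 CPM in WT PBS and at 2.40, 2.40 and 2.96 in KO Tau. Its log2 fold change of 2.87 (SE 0.40, adjusted p = 0.113 by edgeR and 2.02e-05 by DESeq2) rests on a low level, since 3 counts in these libraries are worth 0.141 to 0.189 CPM. Rn45s, the ribosomal RNA repeat, was at 725, 759.7 and 593 CPM in WT PBS and at 3177, 2199 and 1090.2 in KO Tau (log2 fold change 1.65, DESeq2 adjusted p = 0.00481). Erdr1 was at -1.41 (DESeq2 adjusted p = 0.0131). Both are repeated in the genome, and in libraries selected for poly(A) the first also measures carry-over of ribosomal RNA, so that their counts are uncertain. Slc7a11, the cystine transporter gene, was called by no tool on the full set of male libraries. It was at 39.0, 38.7 and 40.7 CPM in WT PBS and at 53.4, 68.2 and 48.1 in KO Tau, without overlap (log2 fold change 0.53). By DESeq2 on the 2 groups without 711 it passed (adjusted p = 0.00783). The 2 genes that limma voom added, Hs6st3 and Uhmk1, overlapped between groups, and in both 711 lay within the WT PBS range.

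**Figure D2:**
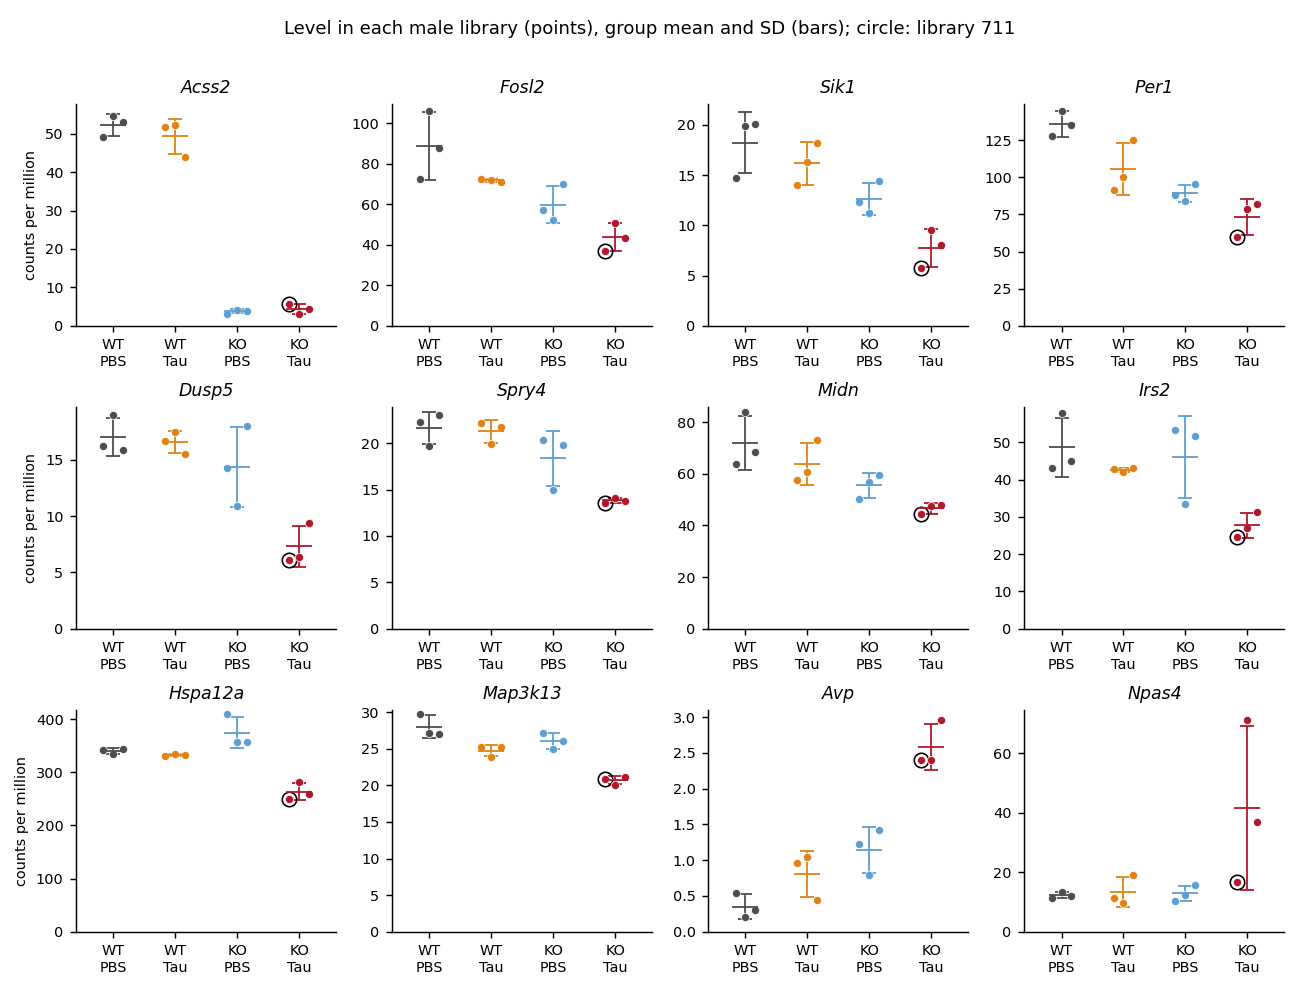
CPM (vertical axes, from 0) of Acss2 and 11 of the genes that passed by DESeq2, in each male library, grouped by genotype and injection. Points are libraries, horizontal bars the group mean, whiskers the SD (n = 3), and the circle marks library 711. The 3 KO Tau libraries lie outside the WT PBS range in each panel.

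Calls without 711 depended on the fit. This library was singled out because earlier results of these data showed that it stood apart. P-values without it therefore do not measure the full spread between KO Tau mice. With DESeq2 on the 2 groups alone and without 711, all 12 lower and all 3 higher genes passed, with log2 fold changes of -0.91 for Fosl2, -0.76 for Per1, -1.06 for Sik1, -1.10 for Dusp5 and 2.15 for Npas4. In the fit of DESeq2 on the male libraries, leaving out 1 library at a time kept 5 to 8 of the 12 lower genes and 1 to 3 of the 3 higher genes past the threshold, and without 711 it kept 8 and 3. The lowest count of lower genes, 5, came without 713 and without 792, and that of higher genes, 1, without 791 and without 793.

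The design also asks how each hit acted alone. The genes were chosen for the double hit, so the single-hit values are given as a description. Fosl2 was at a mean of 88.6 CPM in WT PBS, 71.9 in WT Tau, 59.7 in KO PBS and 43.8 in KO Tau. Per1 was at 136, 106, 89.3 and 73.4 CPM in the same order. The log2 differences from WT PBS were -0.32 with tau alone, -0.52 with the knockout alone and -1.01 with both for Fosl2, and -0.38, -0.55 and -0.88 for Per1. In the same order, Avp was at 1.17, 1.75 and 2.87, Rn45s at 0.46, 0.67 and 1.65, and Sik1 at -0.19, -0.48 and -1.22. Midn was at -0.19, -0.33 and -0.62, and Map3k13 at -0.19, -0.05 and -0.43. Zfp948 was at -0.08, -0.43 and -0.65, and Erdr1 at -0.23, -0.99 and -1.41. Among these genes the single hits gave 1 call by edgeR, that of Acss2 with the knockout, and the 3 comparisons share the WT PBS libraries.

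In Dusp5, Irs2, Spry4 and Npas4 the differences with a single hit were small beside that with both. Dusp5 was at -0.06 with tau alone, -0.19 with the knockout alone and -1.21 with both, and Npas4 was at 0.12, 0.13 and 1.78. Hspa12a was at -0.05 with tau, at 0.19 in the opposite direction with the knockout, and at -0.36 with both. The interaction term tests whether the double hit departs from the sum of the single hits on the log2 scale. It was -0.96 for Dusp5 (unadjusted p = 0.00452), -0.50 for Hspa12a (0.00158), -0.57 for Irs2 (0.0399), -0.42 for Spry4 (0.0308) and 1.53 for Npas4 (0.0248) by edgeR's quasi-likelihood test. None passed after adjustment over all genes. The interaction passed for 0 genes by edgeR, DESeq2 and limma voom alike, with 631 genes (4.18% of 15098), 623 and 1961 at an unadjusted p under 0.05. For Fosl2 and Per1 the interaction was -0.17 and 0.05 (unadjusted p = 0.445 and 0.809). Neither a departure from the sum nor its absence is established for these genes. The smallest interaction p among lower genes was that of Actn2, the alpha-actinin gene of dendritic spines, at -0.89 (SE 0.16, adjusted p = 0.996 by edgeR's quasi-likelihood test). Actn2 was at 11.2, 11.7 and 12.1 CPM in WT PBS, at 14.0 to 15.5 in KO PBS, at 11.5 to 14.0 in WT Tau and at 9.65, 8.44 and 8.66 in KO Tau.

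Immediate early genes did not move as a block. Of 31 tested, 11 were higher and 20 lower, 3 higher and 9 lower at an unadjusted p under 0.05, and 1 higher and 8 lower without overlap of the groups. Over all genes the shares were 3.52% higher and 2.81% lower at that p, and 6.29% and 8.11% without overlap. The median log2 fold change was -0.23, against 0.00 over all genes, and it ranged from -0.38 without 712 to -0.04 without 792 (-0.14 without 711). By DESeq2, Npas4 was called higher and Fosl2, Sik1, Per1 and Dusp5 lower. Btg2, also on this list, was at a log2 fold change of 0.90 and was not called. Nr4a1, an orphan nuclear receptor gene, was at 125, 174 and 122 CPM in WT PBS and at 59.2, 106 and 85.9 in KO Tau (log2 fold change -0.74, SE 0.20, unadjusted p = 0.00354, adjusted p = 0.783 by edgeR). Bdnf, the neurotrophin gene, was at 59.6, 78.5 and 57.8 CPM against 45.2, 37.9 and 43.1, with a log2 fold change of -0.63 and an adjusted p of 0.783. For the fastest genes the KO Tau libraries ran apart from each other. Fos was at 9.27 CPM in 711, 82.1 in 712 and 32.6 in 713, around a WT PBS range of 33.0 to 48.5. Egr1 was at 125, 383 and 326 CPM in the same libraries (WT PBS 265 to 426), and Arc at 150.4, 342 and 228 (WT PBS 185 to 263). Library 711 was thus the lowest and 712 the highest of the 3 in Fos, Egr1, Arc and Npas4.

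Genes of sterol and fatty acid synthesis, a pathway that uses cytosolic acetyl-CoA, tended to be lower. Of 30 genes, 24 were lower and 6 higher, 7 lower at an unadjusted p under 0.05 (2.81% of all genes), and 10 lower without overlap of the groups (8.11% of all genes). None passed after adjustment by edgeR or DESeq2. Cyp51, a demethylase of cholesterol synthesis, was at 85.3, 81.7 and 88.2 CPM in WT PBS and at 62.8, 76.2 and 68.6 in KO Tau, without overlap (log2 fold change -0.29, unadjusted p = 0.00653, adjusted p = 0.783 by edgeR). Mvd, another enzyme of that pathway, was at -0.54. The list median was -0.20 and was -0.12 without 711, in which the median gene lay 0.45 below the controls, against 0.07 below in 712 and 0.16 below in 713. The fatty acid desaturase gene Scd1 was the highest of the list at 0.32. Histone acetylation enzymes and readers, the other users of acetyl-CoA examined, had a median of -0.05 over 30 genes, with 2 higher and 2 lower at an unadjusted p under 0.05 (3.52% and 2.81% of all genes).

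Genes of protein synthesis and of mitochondrial respiration were higher, by small amounts and nearly without exception. All 77 ribosomal protein genes tested had positive log2 fold changes, 47 at an unadjusted p under 0.05 and 55 without overlap of the groups (3.52% and 6.29% of all genes). None passed after adjustment. The sum of the list was 9486, 9644 and 9188 CPM in WT PBS and 14500.1, 10525 and 10261 in KO Tau, so 711 carried the largest part. It was 10579, 10024 and 9612 CPM in WT Tau and 8969, 8074 and 10056 in KO PBS. Genes of 1 list come from the same libraries, so they are not independent of each other. The median log2 fold change of KO Tau over WT PBS was 0.33, and 0.15 without 711. Rpl8, of the large subunit, was at 309, 311 and 308 CPM in WT PBS and at 420.5, 369 and 352 in KO Tau. Of 71 oxidative phosphorylation genes, 68 were higher, 33 at an unadjusted p under 0.05 and 39 without overlap, with a median of 0.21 that ranged from 0.14 to 0.27 as single libraries were left out. Their sum was 10953 to 11477 CPM in WT PBS and 12770, 12701 and 11929 in KO Tau. It was 11159 to 12325 CPM in WT Tau and 10657 to 11578 in KO PBS. Cox4i1, of cytochrome c oxidase, was at 550, 541 and 557 CPM in WT PBS and at 838, 666 and 651 in KO Tau (log2 fold change 0.40, unadjusted p = 0.0055, adjusted p = 0.783 by edgeR). Rn45s was also highest in 711, and its part in these sums was not tested.

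Glial genes were higher on balance. Of 20 genes of disease-associated microglia, the state that surrounds amyloid and tau deposits, 18 were higher, 4 at an unadjusted p under 0.05 (3.52% of all genes were higher at that p) and 6 without overlap of the groups (6.29% of all genes). The median was 0.40 with all libraries and 0.24 without 711, and the sum of the list was 8541 CPM in 711, 5082 in 712, 5580.3 in 713 and 4798 to 5261 in WT PBS. None passed after adjustment. Cd63, a lysosomal tetraspanin gene, was at 53.2, 53.2 and 51.1 CPM in WT PBS and at 87.4, 64.1 and 79.4 in KO Tau (log2 fold change 0.56, SE 0.16). Apoe, which carries lipids between glia and neurons, was at 1713, 1774 and 1770.5 CPM against 3203, 1987 and 2099.9 (0.48, SE 0.20). Trem2, the microglial lipid receptor gene, was at 13.1, 14.2 and 14.3 CPM against 20.7, 15.2 and 16.7 (0.35, SE 0.19). Lgals3 and Itgax, which mark the state, had log2 fold changes of 1.30 and 1.35 (unadjusted p = 0.0153 and 0.0774 by edgeR) but stayed below 1.7 CPM in every library of these groups. Several of these genes are expressed by other cells as well, Apoe foremost by astrocytes. Homeostatic microglia genes had 19 of 20 higher with a median of 0.15, homeostatic astrocyte genes 20 of 20 with 0.19, and oligodendrocyte genes 20 of 20 with 0.32. For these 3 lists the median without 711 was -0.03, -0.07 and 0.11. With tau alone and with the knockout alone, the median was 0.49 and 0.40 for oligodendrocyte genes, and 0.24 and 0.17 for disease-associated microglia. It was 0.04 and -0.02 for homeostatic microglia, and 0.01 and -0.01 for homeostatic astrocytes. The sum of astrocyte genes was 12299 CPM in 711, against 7126 in 712, 7423 in 713 and 7397 to 7832 in WT PBS. In whole tissue, a change in the number of cells of a type and a change in RNA per cell cannot be told apart. Of 23 interferon response genes, 17 were higher, 2 at an unadjusted p under 0.05 and 5 without overlap, against 3.52% and 6.29% of all genes, with a median of 0.16. Bst2, which tethers budding virus, was highest at 0.99.

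Few genes of neuronal receptors and axon guidance had a small p. Of 24 glutamate receptor genes 19 were lower, 1 at an unadjusted p under 0.05 and 3 without overlap (median -0.21), and of 41 axon guidance genes 29 were lower, 1 and 8 by the same counts (median -0.17, and -0.10 without 792). Over all genes 2.81% were lower at that p, near the share of both lists, and 8.11% were lower without overlap. Unc5c, a netrin receptor gene, was at 51.4, 48.2 and 52.9 CPM in WT PBS and at 38.9, 36.1 and 35.7 in KO Tau, with no overlap (log2 fold change -0.46, unadjusted p = 0.0399, adjusted p = 0.783 by edgeR). GABA-A receptor genes had a median of -0.07 (-0.19 without 712) and sodium and calcium channel genes of -0.18, which was -0.08 without 711. Mapt, which encodes tau, was at 609, 619 and 630.1 CPM in WT PBS and at 567, 729 and 665 in KO Tau, and the groups overlapped (0.08, SE 0.10). Over 30 genes of microtubules and of tau kinases and phosphatases the median was 0.04, and none had an unadjusted p under 0.05. Of 15 genes discussed with this dataset, including Rfx3, Rfx5, Rfx7, Rbpj, Reln and Npas4, 11 were lower and 4 higher, 1 each at an unadjusted p under 0.05 (2.81% and 3.52% of all genes). The study named some of these genes from these libraries and others from other assays, so the count is not independent evidence. Rfx5, of the complex that drives MHC class II genes, was at 24.5, 24.4 and 22 CPM in WT PBS and at 20.9, 17.8 and 18.3 in KO Tau (-0.31, SE 0.10, adjusted p = 0.783 by edgeR). With the knockout alone Rfx5 was at -0.35 (KO PBS 16.1 to 18.9 CPM). Rfx3, a factor of ciliary genes, was at 63.8 CPM in 711 but at 29.7 and 30.8 in 712 and 713, on either side of WT PBS (41.1 to 50.5). KO PBS libraries 751, 752 and 753 were split too, at 75.8, 18.2 and 29.7 CPM. The log2 fold change of Rfx3 was -0.16 with all 3 KO Tau libraries (adjusted p = 0.966 by edgeR). Without 711 it was -0.62 by DESeq2 on the 2 groups (adjusted p = 7.96e-05). Reln, the secreted reelin gene of Cajal-Retzius cells and interneurons, was at 106, 63.3 and 95.6 CPM against 34.8, 91.4 and 65.5, and overlapped between groups. Of 14 Cajal-Retzius genes 10 were tested, 6 of them lower, none at an unadjusted p under 0.05, with a median of -0.21 that was -0.09 without 711, -0.02 without 791 and -0.35 without 792.

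Markers of tissue next to the hippocampus were uneven among the KO Tau libraries. All 20 choroid plexus genes had positive log2 fold changes, 19 at an unadjusted p under 0.05, but 5 did not overlap (3.52% and 6.29% of all genes). Ttr, the transthyretin gene of choroid plexus epithelium, was at 22.6, 44.2 and 29.2 CPM in WT PBS and at 229, 42.0 and 3775 in KO Tau, the highest log2 fold change of all genes at 5.40. The list summed to 229.5 to 326 CPM in WT PBS, and to 621, 348 and 5488 in 711, 712 and 713. The list median was 3.38 with all libraries and 1.22 without 713. Meningeal and fibroblast genes summed to 443, 292 and 627 CPM in WT PBS and to 409, 1549 and 1100.4 in KO Tau, with 14 of 16 higher and a median of 1.03, which was 0.58 without 712. WT Tau libraries were uneven too. In 771, 772 and 773 the choroid plexus list summed to 413, 1138 and 305 CPM, and the meningeal list to 519, 1486 and 628. In KO PBS the 2 lists summed to 329 to 496 and to 278 to 675 CPM. The part of choroid plexus and meninges in other genes that were higher in 713 or 712 was not tested.

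Neocortical and hippocampal genes set 711 apart from 712 and 713. Neocortical genes summed to 2054 to 2162 CPM in WT PBS, to 1356 in 711 and to 3088 and 2703 in 712 and 713. Hippocampal genes went the other way: the median gene of the dentate list lay 0.27 above WT PBS in 711 and 0.54 and 0.47 below it in 712 and 713, and that of the CA1 list 0.09 above, 0.62 below and 0.55 below. Fibcd1, a CA1 marker, was at 190.2 CPM in 711, 21.9 in 712 and 69.6 in 713 (WT PBS 132 to 154), and Prox1, which defines dentate granule cells, was at 51.5, 9.59 and 15.1 (WT PBS 23.4 to 40.2). The hippocampal lists were thus present in every library, at unequal levels. KO PBS 752, which received no tau, lay on the same side as 712 and 713 in both, with the CA1 list 1.61 below and the neocortical list 0.63 above WT PBS (0.62 below and 0.72 above in 712). KO PBS 751 had the reverse, with 0.36 above and 0.79 below. With all 3 KO Tau libraries the list medians were 0.11 for neocortex, -0.15 for dentate, -0.32 for CA1, -0.18 for CA2 and -0.19 for CA3. Without 712 they were -0.03, 0.04, -0.09, 0.06 and -0.01, and without 711 they were 0.44, -0.50, -0.55, -0.40 and -0.37. No gene of these lists passed after adjustment by edgeR.

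**Figure D3:**
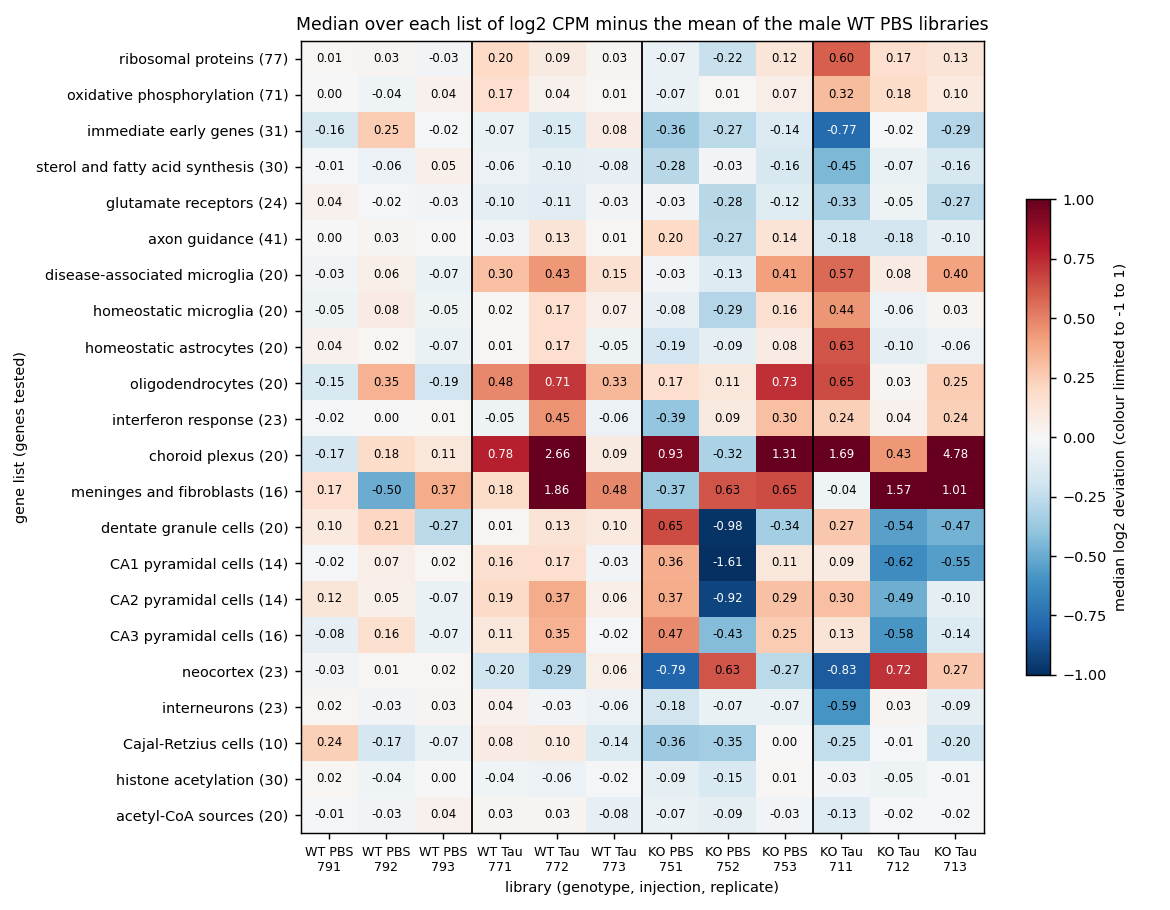
Median over the genes of each list (rows, number tested in brackets) of a gene's log2 CPM minus its mean in WT PBS, for each male library (columns); red is above and blue below WT PBS. In the KO Tau columns, ribosomal genes are above WT PBS in all 3 libraries, whereas neocortex is at -0.83, 0.72 and 0.27 in 711, 712 and 713.

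How far the count of calls depended on 711 differed between fits. By edgeR on the 12 male libraries it was 1 with and without 711, and by DESeq2 on the same libraries it was 15 and 45. With DESeq2 on the 2 groups alone, 22 genes passed with all 3 KO Tau libraries and 1032 without 711, 494 higher (3.49% of 14136) and 538 lower (3.81%). Leaving out any other library gave 2 to 52. By edgeR on the 2 groups alone the counts were 1 with all libraries and 620 without 711. The higher genes with the smallest p were led by Cckbr. Cckbr, a cholecystokinin receptor gene of cortical neurons, was at 41.4, 41.9 and 39.7 CPM in WT PBS, 83.2 and 79.8 in 712 and 713, and 6.81 in 711. Lamp5, a marker of upper cortical layers and of some interneurons, was at 84.6, 96.7 and 95.2 CPM in WT PBS, 179 and 229 in 712 and 713, and 32.3 in 711. Mef2c, a transcription factor gene of cortical neurons, was at 375, 343 and 373 CPM in WT PBS, 729 and 591 in 712 and 713, and 105 in 711. In each of these genes 711 lay below the whole WT PBS range while its group mates lay above it. Npas4 passed as well (adjusted p = 7.39e-15 by DESeq2, against 0.0167 by DESeq2 on all male libraries). Because 711 was left out after its values were seen, such p-values leave out part of the spread between KO Tau mice. Of the 8 higher genes with the smallest p, 3 were above every control in 711 too: Npas4, Camk2n1, which encodes an inhibitor of CaMKII, and E130012A19Rik.

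Among the lower genes, 711 mostly stayed at or above the control level. St6galnac5, a sialyltransferase gene, was at 121, 119 and 118 CPM in WT PBS, 60.5 and 61.3 in 712 and 713, and 120 in 711. Gabra5, the GABA-A subunit of extrasynaptic receptors in hippocampal pyramidal cells, was at 159.5, 163 and 162 CPM in WT PBS, 74.6 and 92.9 in 712 and 713, and 178 in 711. Man1a, a mannosidase gene of the Golgi, was at 59.4, 62.2 and 59.1 CPM, then at 32.7 and 34.4, and at 61.8 in 711. By DESeq2 on the 2 groups without 711, 3.49% of 14136 genes were called higher and 3.81% lower. Of 23 neocortical genes, 12 were called higher and 1 lower in that fit. Of 20 dentate genes 7 were called lower and 1 higher, and of 41 axon guidance genes 14 lower and 3 higher, with Efna5, a ligand of Eph receptors, at 45.6 and 42.1 CPM in 712 and 713 and 3.72 in 711 (WT PBS 16.2 to 18.8).

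Over all 494 genes called higher without 711, 711 lay below the WT PBS range in 320 (64.8%), within it in 76 (15.4%) and above it in 98 (19.8%). Over the 538 called lower, 711 lay above the range in 252 (46.8%), within it in 121 (22.5%) and below it in 165 (30.7%). The median log2 fold change shrank from 0.53 to 0.32 for the higher genes and from -0.51 to -0.29 for the lower once 711 was returned. With 711, 98 of the higher and 90 of the lower genes had an unadjusted p under 0.05 by edgeR. The levels of neocortical, dentate, CA1 and meningeal markers moved with this split, and their part in it was not tested.

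**Figure D4:**
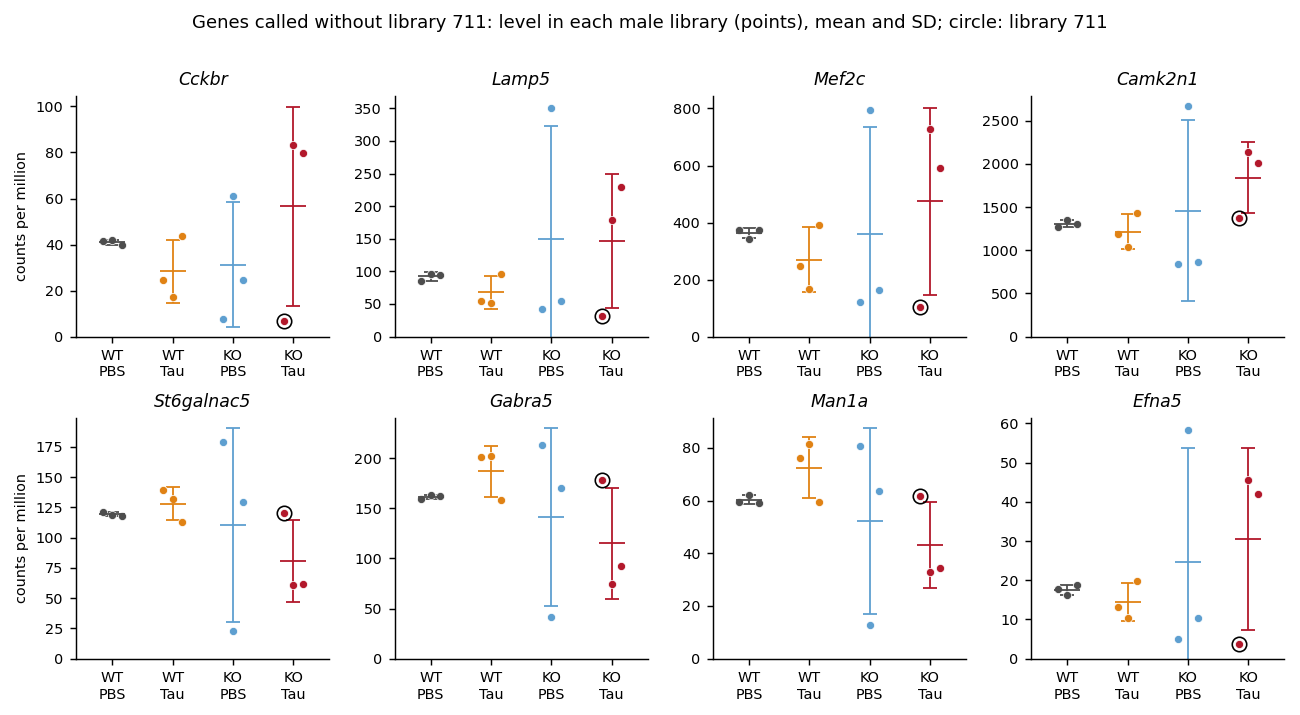
CPM (vertical axes, from 0) of 8 genes among those called without library 711, in each male library, with group mean and SD (n = 3); the circle marks 711. In Cckbr, Lamp5 and Mef2c 711 lies below the WT PBS libraries and 712, 713 and KO PBS 752 above them, and in St6galnac5, Gabra5 and Man1a 712, 713 and KO PBS 752 lie below.

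**Figure D5:**
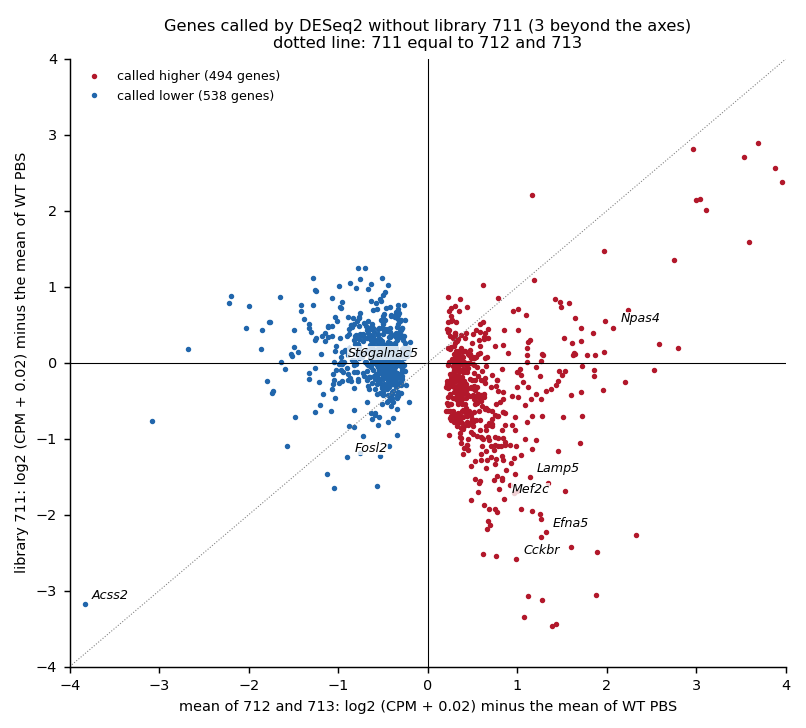
Deviation from the WT PBS mean of log2 (CPM + 0.02) in library 711 (vertical axis) against the mean of 712 and 713 (horizontal axis) for the 1032 genes called by DESeq2 without 711, red called higher and blue called lower, with 3 genes beyond the axes. Most red points lie below 0 on the vertical axis, as the 64.8% of higher genes below the WT PBS range in 711 show, and Acss2 lies near the line of equality.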

How the data were processed

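Poly(A)-selected RNA-seq was measured in 17 libraries of mouse dorsal hippocampus. The authors aligned reads to mm10 (GRCm38) with STAR 2.5.2, used SAMtools 1.1, and deposited raw read counts per gene symbol, made with HTSeq 0.9.1 on exons in the reverse-stranded mode; the annotation release is not given in the sources used here. Values are not corrected for gene length, so levels were compared only within a gene.

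Counts were tested with edgeR 4.0.16 (TMM scaling, filterByExpr with a minimum count of 10, quasi-likelihood test) on the 12 male libraries, which share 1 estimate of the spread, with Benjamini-Hochberg adjustment at 0.05 (R 4.3.3). DESeq2 1.42.0, limma 3.58.1 (voom with sample weights), 1 surrogate variable from sva 3.50.0, RLE scaling, no filter, all libraries, the 2 groups alone and leaving out single libraries were alternatives. Figures used Python 3.11.15, pandas 2.3.3 and matplotlib 3.10.9. The tests were tested on simulated counts. CPM is the count per 1000000 of a library's total (15853495 to 21254509 in the 6 libraries), and 3 counts were taken as the floor, which covers counting error only. With 3 libraries a group, an exact permutation test cannot go below 0.1, so tests rest on the model. Of 24498 symbols, 23615 (96.4%) were found in GENCODE for coordinates.

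Genes were named by rule: Acss2 and the genes discussed in the study, genes past the threshold by any of the 3 tools (at most 20), the 10 higher and 10 lower genes with the smallest p and no overlap, the 8 and 8 with the smallest p without 711, the 3 and 3 of the interaction, and the extremes and up to 6 members of each list. Members and lists were chosen with earlier results of these data known. Groups were taken from the labels. Some genes that this rule names are not reported here.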

Additional observations from a re-analysis of the deposited data

Results flagged for a closer look

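In 3 genes, every KO library with tau moved one way from KO PBS. Every WT library with tau moved the opposite way from WT PBS. None passed after adjustment over all genes (edgeR's quasi-likelihood test of the interaction, adjusted p = 0.996). All 3 were among the genes named for the smallest interaction p, which favours opposite moves. How many of all genes tested moved in this way was not counted. For 2010320M18Rik the interaction was 0.71 on the log2 scale (SE 0.20), with tau at 0.44 in knockouts and -0.27 in wild types. For Dmkn it was -3.63 (SE 0.70), with tau at -1.61 and 2.02. For Crocc2 it was -2.56 (SE 0.55), with tau at -1.06 and 1.49. Both Dmkn and Crocc2 rest on few counts. They were at 0.110 to 0.413 and 0.329 to 0.620 CPM in WT PBS, where 3 counts are worth 0.155 to 0.179 CPM. The highest KO Tau library of Crocc2 (0.757 CPM) was close to the lowest KO PBS library (0.786 CPM).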

How the results depend on the processing

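The count of 1 gene called between KO Tau and WT PBS by edgeR was 1 with RLE scaling, without the filter and on the 2 groups alone, 2 with 1 surrogate variable, 3 on all 17 libraries, 11 by limma voom, 15 by DESeq2 and 22 by DESeq2 on the 2 groups alone. Leaving out single libraries gave 1 by edgeR on the male libraries. Without 711 the count was 620 by edgeR on the 2 groups, 45 by DESeq2 on the males and 1032 by DESeq2 on the 2 groups, and without 712 it was 1, 31 and 52. Without 713, 791, 792 and 793 it was 0 by edgeR on the 2 groups, 7, 7, 8 and 9 by DESeq2 on the males and 7, 7, 2 and 3 by DESeq2 on the 2 groups. The interaction stayed at 0 in every alternative that kept all libraries, and leaving out single libraries gave 0 to 76, with 76, 13, 3 and 1 by DESeq2 without KO PBS 752, KO PBS 753, 711 and 712. Acss2 kept its direction in all 32 alternatives and lost its call by edgeR on the 2 groups alone without 713, 791, 792 or 793 (adjusted p = 0.324, 0.112, 0.148 and 0.167). No scaling moved the median of all genes by more than 0.02. With 1 surrogate variable the log2 fold changes of Cckbr, Efna5, Mef2c and Lamp5 turned negative (-0.42, -0.16, -0.33 and -0.03), and that of Mef2c ranged from -0.05 without 712 to 0.86 without 711. The causes were not tested. No paired analysis was possible because the groups share no replicate number. Depth limits genes near 3 counts, such as Avp and Itgax in WT PBS.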

Other observations

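Of 26 genes of stress and the unfolded protein response, 17 were higher in KO Tau and 9 lower, with a median log2 fold change of 0.10 that ranged from 0.02 without 712 to 0.21 without 711. Sdf2l1, of the chaperone complex of the endoplasmic reticulum, was highest at 0.54, and Sesn2, a sestrin gene, was at -0.43; neither passed after adjustment. Of 15 glucocorticoid targets 12 were lower (median -0.15, and -0.09 without 712), with Per1 the lowest and Plin4, of lipid droplets, the highest at 0.36. Of 23 interneuron genes 16 were lower, with a median of -0.21 that was -0.05 without 711, in which the median gene lay 0.59 below WT PBS. Cnr1, the cannabinoid receptor gene, was at 205, 177 and 199.8 CPM in WT PBS and at 127, 156 and 149 in KO Tau, without overlap (log2 fold change -0.42, unadjusted p = 0.00283, adjusted p = 0.783 by edgeR).

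Other lists had medians near that of all genes (0.00). The median was 0.01 over 30 apoptosis genes, -0.06 over 41 potassium channel genes, -0.02 over 20 endothelial and pericyte genes, 0.07 over 16 reactive astrocyte genes, 0.08 over 14 genes of oligodendrocyte precursors, 0.00 over 16 striatal genes, 0.07 over 11 nuclear-retained RNAs and 0.11 over 2 blood genes. It was 0.21 over 17 genes of thalamus and habenula (0.06 without 712 or 793) and 0.38 over 14 ependymal genes, the latter -0.04 without 713.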
